A study of Mus musculus with 4 samples.

Results

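The macrophages described here were 238 nuclei of mouse heart, out of 20609 nuclei within the quality limits and 41706 barcodes, that carried RNA of Gpnmb, Spp1 or Trem2. They were selected on their own counts of unique molecular identifiers (UMIs, which mark single RNA molecules). Each had at least 500 UMIs, at most 5% mitochondrial UMIs and under 3% of UMIs from 7 cardiomyocyte genes. Each also had at least 2 UMIs over 9 macrophage genes and at least 2 UMIs over Gpnmb, Spp1, Trem2, Cd300lf, St18 and Lgals3, at least 1 of them from Gpnmb, Spp1 or Trem2. Nuclei with a UMI of Ccr2, Cdh5 or Pdgfra were left out. The 238 nuclei are called members below, and 225 of them came from the Pkp2 cKO libraries and 13 from the controls.

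The series compared hearts of mice with the alleles PKP2fl/fl MCM cre/+, labelled pkp2 cko, with hearts of MCM cre/+ mice, labelled wt. Both groups were treated with tamoxifen, the mice were 8 weeks old, and whole hearts were taken 2 weeks after the injection. Each group had 2 single-nucleus libraries, R1 and R2, made on the BD Rhapsody platform. The hearts of 1 male and 1 female mouse are described as pooled in each. Xist, an RNA of female cells, had only 9 and 15 UMIs over the nuclei within the quality limits of cKO R1 and R2. It had 6 and 12 UMIs in control R1 and R2, so the counts do not show the female part, and the reason was not tested. Comparisons of groups are over libraries (n = 2 each), since nuclei of 1 library are not replicates. Pkp2 encodes plakophilin 2, a desmosome protein that joins heart muscle cells, and inherited loss of it underlies forms of arrhythmogenic cardiomyopathy. The labels do not say in which cells the Cre is active, and they give the cell type of all samples as cardiomyocyte although macrophage RNA was present in each.

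Lipid-associated macrophages are known from fat tissue, arterial plaques and injured organs, where they take up lipid and dead cells. TREM2 is a surface receptor that binds lipids and signals through TYROBP. GPNMB is a glycoprotein of the endolysosome and cell surface, and SPP1 is osteopontin, a secreted matrix protein. Many genes of lysosomes are under shared control by the MiT family of transcription factors (MITF, TFEB, TFE3 and TFEC), which bind an E-box with the core CACGTG.

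The libraries held 20992683 and 40536562 UMIs in cKO R1 and R2 and 13491201 and 35204091 UMIs in control R1 and R2. No cell barcode within the quality limits was shared between libraries. Pkp2 measured 386 and 299 CPM (UMIs of a gene scaled to a common total per library) over all quality nuclei of the cKO libraries, against 441 and 377 CPM in the controls, and the groups overlapped. Which part of Pkp2 is deleted was not given in the sources used here, so these counts do not check the deletion. Esr1, whose sequence is part of tamoxifen-inducible Cre fusions, measured 2244 and 1640 CPM in the cKO libraries, against 109 and 95.9 CPM in the controls, although the titles name the Cre line in both groups. Among members, Esr1 measured 91.9 and 117 CPM in the cKO libraries, against 156 and 288 CPM in the controls, where they rest on 1 and 7 UMIs. Members had a median of 2015 and 2273 UMIs in the cKO libraries, against 1475 and 1789 UMIs in the controls. Their counts summed to 185041 and 358806 UMIs in the cKO libraries, against 6391 and 24330 UMIs in the controls, so 1 UMI was worth 5.40 and 2.79 CPM in cKO members and 156 and 41.1 CPM in control members. Levels of single genes in control members therefore carry a large counting error.

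Promoters of 3 genes that the results below turn on are shown, because they hold the motifs that the text counts. Sequences are RefSeq's on GRCm38.p6, which is mm10, from 250 bases before the start of the transcript to 50 after it, in the direction of the gene. Capitals mark TGACTCA, an AP-1 site, in Gpnmb (chr6:49036268-49036567, plus strand), and CACGTG, the E-box core, in Ctsd (chr7:142387778-142388077, minus strand) and Plin2 (chr4:86670010-86670309, minus strand).
Gpnmb: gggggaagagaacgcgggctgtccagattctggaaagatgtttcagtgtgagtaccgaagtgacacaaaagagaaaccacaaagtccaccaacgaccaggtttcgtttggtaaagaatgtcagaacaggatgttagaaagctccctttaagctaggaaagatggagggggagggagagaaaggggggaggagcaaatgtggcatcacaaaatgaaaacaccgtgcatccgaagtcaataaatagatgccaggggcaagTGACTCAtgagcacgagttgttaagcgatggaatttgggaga
Ctsd: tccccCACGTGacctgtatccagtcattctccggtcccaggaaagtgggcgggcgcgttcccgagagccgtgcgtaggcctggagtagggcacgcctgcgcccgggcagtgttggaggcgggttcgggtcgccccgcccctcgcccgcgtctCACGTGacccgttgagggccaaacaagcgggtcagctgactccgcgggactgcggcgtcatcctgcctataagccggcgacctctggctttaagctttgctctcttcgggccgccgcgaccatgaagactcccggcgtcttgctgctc
Plin2: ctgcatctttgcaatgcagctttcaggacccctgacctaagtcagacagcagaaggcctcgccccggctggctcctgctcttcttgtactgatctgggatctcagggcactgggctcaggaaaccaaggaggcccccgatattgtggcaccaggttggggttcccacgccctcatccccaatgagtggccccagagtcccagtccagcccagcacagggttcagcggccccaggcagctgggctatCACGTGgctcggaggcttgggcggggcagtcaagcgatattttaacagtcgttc

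Both motifs were searched on both strands of 32851 such windows, and the motifs share no overlap with each other. CACGTG stood in 7.15% of all windows. It stood in 7 of 25 windows of the listed lysosomal enzymes (28%), among them those of Ctsa, Ctsd, Ctsl and Lgmn, and in 5 of 16 windows of the lysosome membrane list (31.3%). None of 6 windows of the 6 genes that chose the members held it, with 5 of those 6 genes matched to a window. TGACTCA stood in 5.2% of all windows and in 1 of those 6, that of Gpnmb. It stood in 3 of 25 windows of the lysosomal enzymes (12%) and in 1 of 16 of the membrane list (6.25%). A match describes these letters and not a bound site.

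The genes that chose the members are given as a description, without a test. Gpnmb (chromosome 6, 49036546 to 49070929 on mm10) had 254 and 567 UMIs in cKO members, against 2 and 6 UMIs in control members. It was present in 68.2% and 60.6% of cKO members, with up to 23 and 54 UMIs in 1 nucleus. Trem2 (chromosome 17, 48346401 to 48354147) had 83 and 139 UMIs in cKO members, against 4 and 8 UMIs in control members. Cd300lf, a receptor of the CD300 family that binds lipids, had 78 and 112 UMIs against 0 and 1. Spp1 (chromosome 5, 104435118 to 104441050) had 80 and 99 UMIs in cKO members, and St18, a zinc finger transcription factor, had 48 and 174 UMIs. Both had 0 UMIs in members of either control library. Lgals3, which encodes galectin 3, a sugar-binding lectin, had 167 and 454 UMIs in cKO members, against 3 and 7 UMIs in control members. RNA of all 6 genes was found in cKO members of both libraries, and the control members held low counts of Trem2, Lgals3 and Gpnmb and 1 UMI of Cd300lf.

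Members of the 2 groups also differed in how far past the threshold they lay. The median number of UMIs over the 6 genes was 6 and 8 per cKO member, against 2 and 2 per control member. Among cKO members 53 of 88 and 88 of 137 had 5 or more such UMIs, against 0 of 4 and 0 of 9 control members. Exactly 2 UMIs, the minimum, were found in 20 and 26 cKO members and in 3 and 7 control members. Just outside, 56 and 137 macrophage nuclei of the cKO libraries and 29 and 64 of the controls had 1 such UMI. A further 24 and 49 nuclei of the cKO libraries, against 4 and 7 of the controls, had at least 2 such UMIs but none of Gpnmb, Spp1 or Trem2. A UMI of Ccr2 alone kept out 57 and 57 nuclei of the cKO libraries, against 2 and 0 of the controls.

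**Figure D1:**
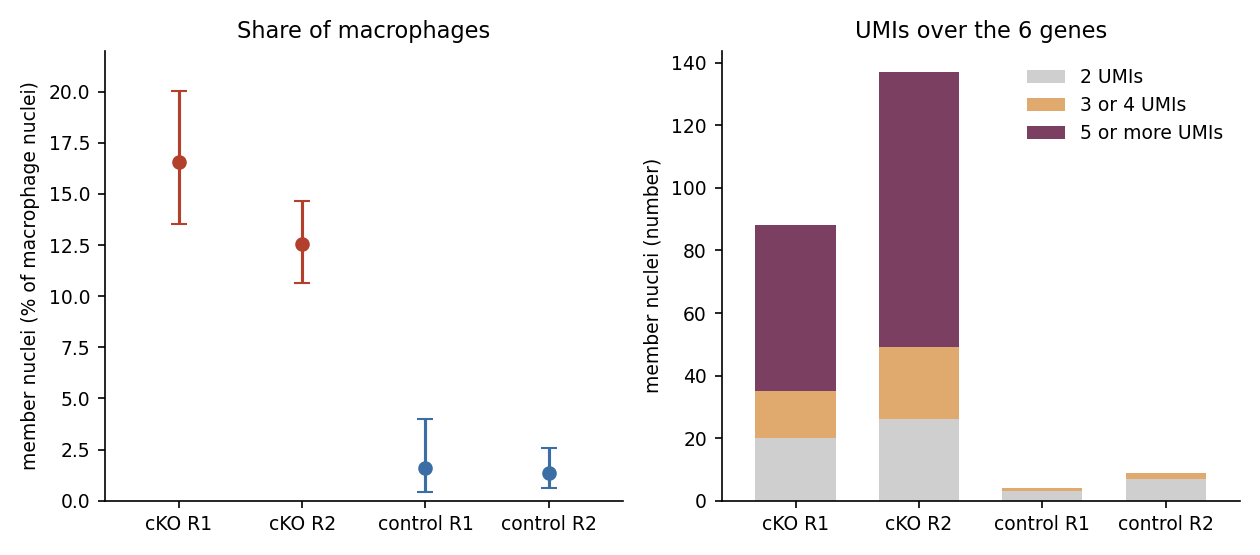
Left, members as a percentage of macrophage nuclei in each library, with the exact 95% binomial interval, which covers counting error only. Right, the number of members by their UMIs over the 6 genes. Both cKO libraries lie above both controls, and members with 5 or more such UMIs occurred in the cKO libraries alone.

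Members made up a larger share of the macrophages in both cKO libraries than in either control. They were 88 of 531 and 137 of 1093 macrophage nuclei in the cKO libraries (16.6% and 12.5%), against 4 of 254 and 9 of 660 in the controls (1.57% and 1.36%), where macrophages are members, other macrophages and macrophages with a Ccr2 UMI together. The exact 95% intervals were 13.5% to 20% and 10.6% to 14.6% in the cKO libraries, against 0.431% to 3.98% and 0.625% to 2.57% in the controls. The mean share was 14.6% ± 2.86 in cKO and 1.47% ± 0.149 in control libraries (SD, n = 2 each), 9.84-fold apart on the log scale. Of all quality nuclei, members were 2.26% and 1.88% in the cKO libraries, against 0.134% and 0.14% in the controls. The 2-sided exact permutation test gave p = 0.33 for both shares, the smallest value that 2 against 2 libraries allow. Nuclei were stained and sorted before capture, and shares can depend on that sort.

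Other macrophages, which did not meet the 6-gene criterion and had no Ccr2 UMI, were 7.29% and 9.64% of quality nuclei in the cKO libraries. In the controls they were 7.94% and 9.29%, and the groups overlapped. This class was not free of the signal, as only 204 of 284 and 517 of 703 such cKO nuclei had no UMI of the 6 genes. Macrophages with a Ccr2 UMI, the receptor of recruited monocytes, were 4.08% and 3.47% of quality nuclei in the cKO libraries, against 0.401% and 0.84% in the controls. Among those, the cKO libraries held 97 and 47 Gpnmb UMIs and 65 and 82 Trem2 UMIs, so RNA of both genes was not limited to the members.

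Free RNA was checked in nuclei with markers of endothelium or of fibroblasts. The 6-gene criterion was met by 0.422% and 0.299% of nuclei with endothelial markers in the cKO libraries, against 0% and 0% in the controls, where 3 nuclei would be 1.15% and 0.379%. Nuclei with fibroblast markers met it in 1.01% and 1.05% in the cKO libraries, against 0.855% and 0.212% in the controls. Macrophages of the same limits met it in 27.3% and 17.7% in the cKO libraries and in 2.36% and 1.36% in the controls. By this criterion the macrophage shares were the highest in each library. Their intervals were 0.872% to 5.07% and 0.625% to 2.57% in the controls, where the fibroblast intervals reached 2.48% and 0.762%. Taken singly, Gpnmb was in 2.28% and 2.43% of control nuclei with fibroblast markers, against 1.57% and 1.06% of control macrophages. In the cKO libraries it was in 2.69% and 2.90% of nuclei with fibroblast markers, against 18.5% and 10.2% of macrophages. The median depth in cKO R1 was 1643 UMIs for macrophages, against 1395 UMIs for endothelial and 1557 UMIs for fibroblast nuclei. In control R1 it was 1151 UMIs for macrophages, against 1137 UMIs for endothelial and 1121 UMIs for fibroblast nuclei. With each nucleus thinned to 500 UMIs, 36 of 399 and 43 of 732 macrophages were members in the cKO libraries (9.02% and 5.87%), against 0 of 189 and 0 of 442 in the controls, which allows up to 1.59% and 0.679%. Members with 2 of Gpnmb, Spp1 and Trem2 numbered 41 and 58 in the cKO libraries, against 0 and 0 in the controls.

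Nuclei above the mitochondrial limit, which the selection did not use, gave the same order of the groups. Among macrophage nuclei with over 5% and up to 20% mitochondrial UMIs, 65 of 485 and 78 of 712 met all other criteria in the cKO libraries (13.4% and 11%), against 6 of 220 and 6 of 435 in the controls (2.73% and 1.38%). Of these, 39 and 51 in the cKO libraries had 5 or more UMIs over the 6 genes, against 1 and 1 in the controls.

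**Figure D2:**
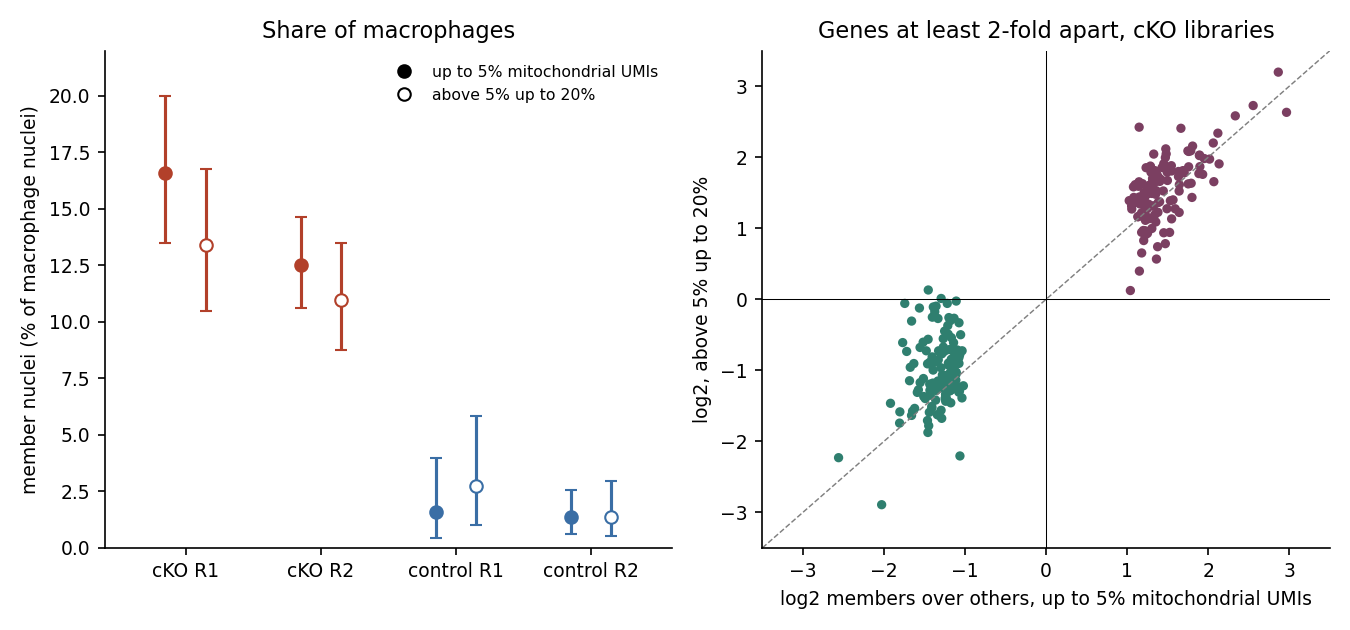
Left, members as a percentage of macrophage nuclei at up to 5% mitochondrial UMIs (filled) and above 5% up to 20% (open), with exact 95% intervals. Right, the mean log2 ratio of members over other macrophages in the cKO libraries in both kinds of nuclei, 1 point a gene, for the 123 genes at least 2-fold higher (purple) and 131 at least 2-fold lower (green) at up to 5%. Of the 123 genes, 122 were also higher in both libraries in the nuclei above 5%. Members of both kinds of nuclei were chosen by the same genes in the same libraries, so the 2 axes are not independent.

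As macrophages, members carried a median of 9 and 12 UMIs over the 9 macrophage genes in the cKO libraries, against 5 and 6 UMIs in other macrophages of those libraries. Mertk, a receptor for dying cells, measured 730 and 850 CPM in cKO members, against 645 and 667 CPM in the other macrophages. Csf1r, the receptor of the growth factor that keeps macrophages alive, measured 594 and 429 CPM in members, against 609 and 568 CPM in the others. Levels here and below are CPM of the UMIs summed over the nuclei of a class in a library, and they are not scaled by gene length. All 5 marker genes that go with the name lipid-associated macrophage are among the genes that chose the members, so they do not test it. Of 25 further genes known from such cells, 20 had at least 50 UMIs over members and other macrophages of the cKO libraries. Of those, 18 were higher in members of both libraries, where 31.0% of all genes were, and 7 at least 2-fold, where 1.46% were. Lpl, lipoprotein lipase, was not higher, at 357 and 337 CPM in members against 539 and 370 CPM in the others. Mmp12, Cst7, Dcstamp and Ocstamp were among the 5 below 50 UMIs. These counts use the contrast that chose the members, so they do not test the name either. Ctsb, Ctsd, Ctsl, Atp6v0d2, Fabp5 and Plin2, among the 7, are counted again in the lists below.

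Members held more RNA of lysosomal genes, and of some lipid storage genes, than other macrophages of the same cKO libraries. The comparison is the selection's own contrast and has no test, and the ratio is log2 of (CPM + 20) in members over (CPM + 20) in the others. Of 8419 genes outside the selection with at least 50 UMIs, 123 were at least 2-fold higher in both cKO libraries (1.46%) and 131 at least 2-fold lower in both (1.56%), and the median over all genes was -0.02. Over the same 8419 genes, 31.0% were higher in both libraries and 33.8% lower in both, which is the background of the counts below.

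Enzymes of the lysosome were higher in members in every measured case. Of the 27 listed, 23 had enough UMIs, all 23 were higher in members of both cKO libraries, and 12 were at least 2-fold higher, with a median log2 ratio of 1.10. Psap (chromosome 10, 60277627 to 60302597), the precursor of proteins that help break down sphingolipids, measured 3702 and 2453 CPM in members, against 1004 and 580 CPM in other macrophages. Ctsb (chromosome 14, 63122462 to 63145923), cathepsin B, measured 2632 and 1742 CPM against 696 and 453 CPM. Ctsd (chromosome 7, 142375911 to 142388038), cathepsin D, measured 524 and 284 CPM against 127 and 62.6 CPM. In each of these 3 genes both libraries of members lay above both libraries of the others. Lipa, the acid lipase that frees cholesterol from its esters, measured 232 and 248 CPM in members, against 97.3 and 81.5 CPM. Ctsz, Ctsl, Ctss, Ctsa, Lgmn, Naglu, Gusb and Grn made up the rest of the 12. Against other macrophages with at least 5 macrophage UMIs, 5 of the 12 stayed at least 2-fold higher in both libraries.

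The lysosome's membrane and proton pump followed with a smaller difference. Of 19 listed genes, 18 were higher in both libraries and 5 at least 2-fold, with a median log2 ratio of 0.74. Atp6v0d2 (chromosome 4, 19876841 to 19922605), a subunit of the proton pump known from osteoclasts and macrophages, measured 113 and 270 CPM in members, against 19 and 8.75 CPM in the others. Atp6v1a, its catalytic subunit, measured 259 and 421 CPM against 88.8 and 97.6 CPM. Npc1, which exports cholesterol from the lysosome, measured 270 and 273 CPM against 116 and 90.2 CPM. Of 13 measured genes of the MiT factors and of mTORC1 at the lysosome, only Fnip2, a partner of folliculin, was at least 2-fold higher, at 773 and 1028 CPM in members against 197 and 183 CPM. Mitf measured 697 and 1260 CPM in members, against 343 and 506 CPM in the others, log2 ratios of 0.98 and 1.28, while Tfeb measured 59.4 and 75.2 CPM against 29.6 and 61.3 CPM.

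Genes of lipid handling were mixed. Of 22 measured genes of 28 listed, 13 were higher in both libraries, 5 were lower in both, and 5 were at least 2-fold higher, with a median log2 ratio of 0.42. Plin2 (chromosome 4, 86648386 to 86670060), the coat protein of lipid droplets, measured 432 and 527 CPM in members, against 129 and 125 CPM in the others. Soat1, which esterifies cholesterol for storage, measured 216 and 329 CPM against 65.6 and 70.7 CPM. Nceh1, which hydrolyses cholesterol esters, measured 276 and 387 CPM against 82.5 and 65.3 CPM. Abcg1, a cholesterol exporter, and Fabp5, a fatty acid carrier, completed the 5. Cd36, a fatty acid and lipoprotein receptor, measured 584 and 822 CPM in members, against 647 and 634 CPM in the others, and the classes overlapped. Apoe measured 2281 and 1828 CPM against 1607 and 1191 CPM, under 2-fold.

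**Figure D3:**
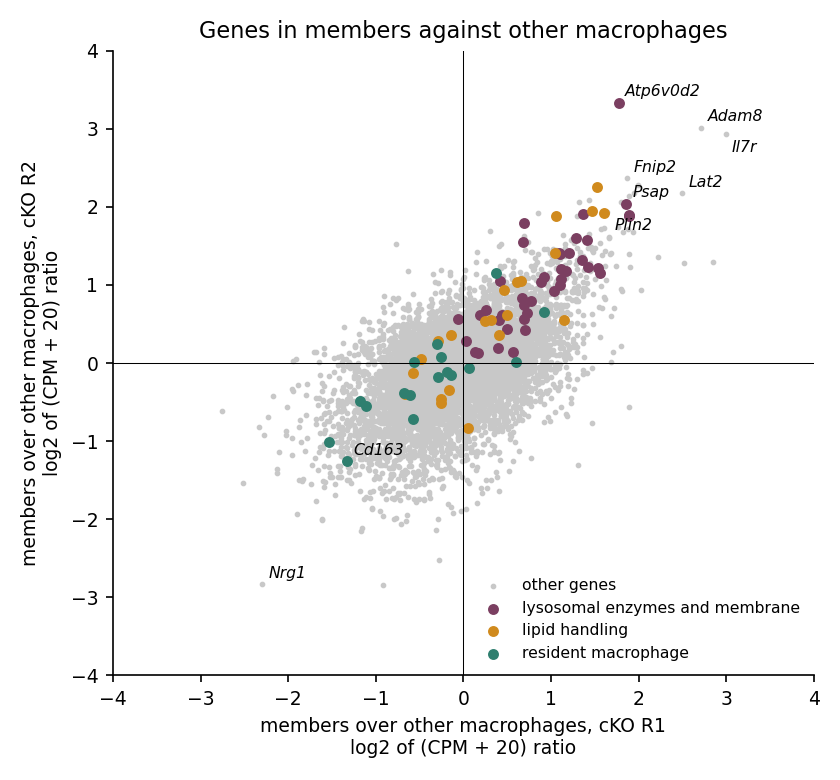
Each point is a gene outside the selection, placed by its log2 ratio of members over other macrophages in cKO R1 (horizontal) and cKO R2 (vertical). Lysosomal genes (purple) lie to the upper right, lipid handling genes (orange) spread from below 0 to over 2, and resident macrophage genes (green) lie mostly at or below 0.

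The genes with the highest ratios outside these lists were of several kinds, named after their values were seen. Il7r (chromosome 15, 9505788 to 9530176), the interleukin 7 receptor, measured 173 and 201 CPM in members, against 4.23 and 8.75 CPM in other macrophages, log2 ratios of 2.99 and 2.94. Adam8 (chromosome 7, 139978932 to 139992562), a membrane protease, measured 903 and 594 CPM against 121 and 55.9 CPM. Lat2, an adaptor of immune receptors, measured 427 and 268 CPM against 59.2 and 43.8 CPM. Osbpl8, a lipid transfer protein at membrane contacts, measured 1027 and 1366 CPM against 262 and 294 CPM. The chemokines Ccl7 and Ccl2 were higher by more in cKO R1 (log2 ratios 2.85 and 2.51) than in cKO R2 (1.29 and 1.28). Of 12 measured inflammatory genes only these 2 and Ccl3 were at least 2-fold higher, and Il1b had 0 and 5.57 CPM in members against 4.23 and 28.3 CPM in the others.

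A second rule asked for the same direction in all 4 libraries, control members included. Its 15 highest genes held the lysosomal genes Psap, Ctsb and Atp6v1c1, the lipid genes Plin2 and Nceh1, and Cd84, Capg, Alcam, Gas2l3, Hmox1, Arhgap25, Lrp12, Raet1e, Ercc6 and Ttyh2. Cd84, an adhesion receptor of the SLAM family, measured 1135 and 1511 CPM in cKO members, against 279 and 318 CPM in other macrophages of those libraries. In control members it measured 939 and 740 CPM, against 336 and 427 CPM. Gas2l3, which links actin and microtubules, measured 146 and 164 CPM in cKO members against 27.5 and 24.2 CPM, and 313 and 123 CPM in control members against 42.4 and 35.1 CPM, the control members on 2 and 3 UMIs. Of the 15 genes, 5 (Nceh1, Atp6v1c1, Capg, Hmox1 and Lrp12) rest on 1 UMI in members of 1 control library. With 1 UMI worth 156 CPM in members of control R1, a low gene with any UMI there counts as higher. Atp6v1c1, Ercc6, Ttyh2 and Raet1e had log2 ratios of 4.38, 3.41, 3.20 and 2.49 there, on 6, 3, 2 and 2 UMIs. Ttyh2 had a log2 ratio of 0.14 in cKO R1 and Raet1e of 0.14 in cKO R2. The share of all genes that meet this rule was not counted.

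Other lists gave fewer such genes. Fth1 and Ftl1, the ferritin chains that store iron, were at least 2-fold higher in members, as were Hk3 of glycolysis, Atf3 of the immediate early genes, Cd44 of the monocyte list and Plau of the matrix list. No gene of 21 measured for efferocytosis and TREM2 signalling was 2-fold higher, and Tyrobp measured 135 and 109 CPM in members against 50.8 and 66 CPM. Of 17 measured genes of resident macrophages, 10 were lower in both libraries and 3 higher, with a median of -0.24. Cd163, a scavenger receptor for haemoglobin, measured 70.3 and 89.2 CPM in members, against 207 and 241 CPM in the others. Lyve1, a hyaluronan receptor of resident macrophages, measured 37.8 and 53 CPM against 148 and 127 CPM. F13a1, also of that list, measured 1167 and 1984 CPM against 1797 and 2634 CPM. All 20 listed resident genes summed to 5610 and 5883 CPM in members, against 5745 and 6290 CPM in the others, and the classes overlapped. The 20 measured cell cycle genes had a median of 0.56, with 16 higher in both libraries and none 2-fold.

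**Figure D4:**
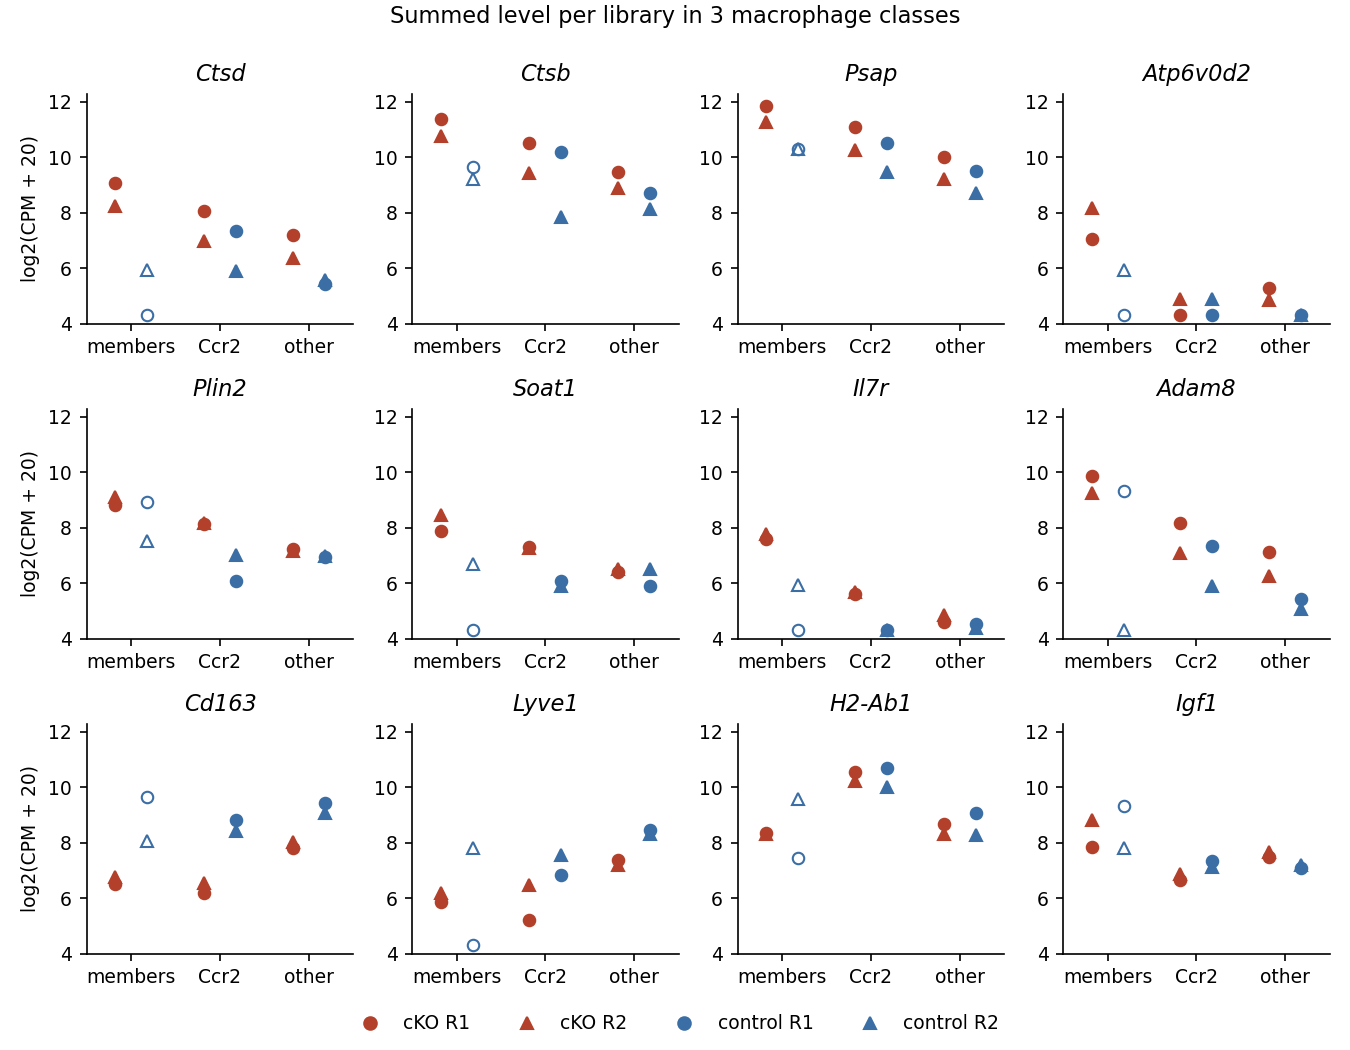
Each panel gives 1 gene as log2(CPM + 20) in members, macrophages with a Ccr2 UMI and other macrophages, with cKO libraries (red) left of controls (blue), R1 as circles and R2 as triangles. Open symbols are control members, which rest on 4 and 9 nuclei. Ctsd, Ctsb and Psap step down within each cKO library, across the classes in the order drawn. Atp6v0d2 is low in both classes outside members, and H2-Ab1 is highest in macrophages with Ccr2.

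Endothelial, fibroblast and mural markers were lower in members, and the comparison was repeated against macrophages with more macrophage RNA. The neutrophil list went the other way through Csf3r, at 130 and 206 CPM in members against 71.9 and 62.6 CPM in the others, while its markers S100a8 and Retnlg were at 0 in cKO members. The part of these markers in the other ratios was not tested. The lowest gene was Nrg1, a growth factor made by endothelium, at 21.6 and 27.9 CPM in members against 184 and 320 CPM in the others. Ccl21a and Flt4 of lymphatic vessels and Myh11 of smooth muscle were among the 5 lowest. The 6 endothelial markers summed to 1324 and 778 CPM in cKO members, against 2026 and 2055 CPM in other macrophages, and 6 mural markers (of pericytes and smooth muscle) to 249 and 446 CPM against 1053 and 797 CPM. With the others limited to nuclei with at least 5 macrophage UMIs, 56 genes were at least 2-fold higher and 31 at least 2-fold lower. Of the first 123, 52 were among the 56 and all 123 stayed above 0 in both libraries, while of the 131 lower genes 13 were among the 31. Of the 12 lysosomal enzymes 5 (Psap, Ctsb, Ctsd, Ctsl and Naglu) stayed at least 2-fold higher in both libraries, of the 5 membrane genes only Atp6v0d2, and of the 5 lipid genes Plin2, Nceh1 and Soat1.

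The lysosomal pattern was also measured in the nuclei above the mitochondrial limit, with mitochondrial UMIs left out of the total. Members there were chosen by the same genes, from the same cKO libraries that gave the 123 higher genes. The comparison is again the selection's own contrast, so it has no test and is not independent of the comparison above. Of the 123 higher genes, 99 were at least 2-fold higher in both cKO libraries there, with a median log2 ratio of 1.53, and of the 131 lower genes 33 were at least 2-fold lower. Over all 8419 genes 2.65% were at least 2-fold higher there and 2.48% at least 2-fold lower, with a median of -0.04. Psap measured 4859 and 3632 CPM in members of those nuclei, against 1180 and 932 CPM in the others. Plin2 measured 376 and 562 CPM against 86.2 and 101 CPM. Of the 23 lysosomal enzymes 22 were higher in both libraries there, and 13 at least 2-fold. Of all 8419 genes, 30.1% were higher in both libraries there. Cd163 measured 122 and 102 CPM in members there, against 113 and 108 CPM in the others, and the classes overlapped.

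Set against macrophages with a Ccr2 UMI, members of the cKO libraries had less RNA of antigen presentation. Of 6237 genes, 22 were at least 2-fold higher in both libraries (0.353%) and 56 at least 2-fold lower in both (0.898%), and again no test applies. All 6 measured MHC class II genes were at least 2-fold lower, with a median log2 ratio of -1.95. H2-Ab1, a class II chain, measured 308 and 295 CPM in members, against 1497 and 1168 CPM with Ccr2. Ciita, the activator of these genes, measured 21.6 and 55.7 CPM against 259 and 315 CPM, and Cx3cr1, the fractalkine receptor, 21.6 and 50.2 CPM against 172 and 197 CPM. Against the other macrophages, H2-Ab1 did not stand apart, at 308 and 295 CPM in members against 389 and 297 CPM.

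The genes higher in members than with Ccr2 were led by Atp6v0d2, at 113 and 270 CPM against 0 and 9.83 CPM. Il7r measured 173 and 201 CPM against 29.1 and 31.1 CPM, and Adam8 903 and 594 CPM against 271 and 115 CPM. Igf1, insulin-like growth factor 1, measured 211 and 435 CPM against 81.5 and 98.3 CPM. Of 23 lysosomal enzymes only Ctsd was at least 2-fold higher, with 18 higher in both libraries and a median of 0.44. Over all 6237 genes, 1808 were higher in both libraries and 1880 lower in both, with a median of -0.01. Against other macrophages the median of this list was 1.10, so macrophages with Ccr2 stood between the other 2 classes. Of the macrophages with Ccr2, 57 of 159 and 57 of 253 met the 6-gene criterion, and their part in this was not tested.

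The members were not uniform. Of the cKO members 60 of 88 and 83 of 137 held Gpnmb RNA, 19 and 44 held Trem2 alone of the 3 defining genes, 23 and 30 Gpnmb alone, 5 and 5 Spp1 alone, and 16 and 14 all 3. In the controls 1 and 3 members held Gpnmb alone and 3 and 6 held Trem2 alone, and none held 2 of the 3. Members of cKO libraries with Gpnmb had a median of 1958 and 2493 UMIs, against 2047 and 2115 UMIs in those without. Depth thus differed in opposite directions in the 2 libraries. Over the 6 genes, which include Gpnmb, the median was 7 and 10 UMIs with Gpnmb, against 3 and 3 UMIs without. Members without Gpnmb thus lay near the minimum of 2, and the split also sets strong against weak 6-gene signal.

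Members with Gpnmb RNA had more RNA of some lysosomal genes and less of class II and resident genes than members without. Of 2691 genes, 18 were at least 2-fold higher in both cKO libraries (0.669%) and 13 at least 2-fold lower (0.483%), without a test, since the split uses a selection gene. Among the higher were Atp6v0d2, Ctsl, Slc11a1 (a metal transporter of the phagosome), Lyst (a regulator of lysosome size) and Cd180 (a receptor of the Toll-like family). Atp6v0d2 measured 150 and 346 CPM with Gpnmb, against 34.4 and 133 CPM without. Rbpj, the DNA-binding factor of Notch signalling, had the lowest ratio, at 520 and 463 CPM with Gpnmb against 1718 and 3185 CPM without. H2-Ab1 measured 213 and 138 CPM against 515 and 581 CPM, and F13a1 875 and 1414 CPM against 1803 and 3020 CPM. Cd86, a costimulatory ligand, was lower as well. The lysosomal enzymes together had a median of 0.30, with 14 of 18 higher in both libraries and 2 lower. The lysosome membrane list had a median of 0.17, with 7 of 15 higher in both and 3 lower. Over all 2691 genes, 765 were higher in both and 734 lower, with a median of 0.02.

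Cell cycle RNA was read in members from at least 2 UMIs over 31 genes of DNA synthesis and mitosis. This held for 31.8% and 36.5% of cKO members, against 25% and 33.3% of control members on 1 and 3 nuclei. Of other macrophages it held for 21.5% and 29.2% in the cKO libraries and 20.2% and 29% in the controls. With nuclei thinned to 1000 UMIs, the shares were 24.4% and 19% of cKO members, against 15.2% and 14.1% of other cKO macrophages, leaving out 10 and 0 members and 61 and 38 others below that depth. The thinned share of other macrophages in the controls was 21.3% and 19.2%, so it overlapped that of the cKO members. Mki67, a marker of dividing cells, was found in 8 and 10 cKO members.

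Between the groups, few genes within members could be tested, since 13 control nuclei stand against 225. The groups also differed in the signal that chose them, with a median of 6 and 8 UMIs over the 6 genes per cKO member. Control members had a median of 2 and 2. A difference between cKO and control members below therefore cannot be told apart from one between strong and weak 6-gene signal. Counts were summed per library and class and tested with edgeR's quasi-likelihood test with Benjamini-Hochberg adjustment over all genes tested. Of 2885 genes outside the selection, 6 rose in cKO members (0.208%) and 17 fell (0.589%), with a median log2 fold change of 0.25 over all genes and 311 genes with an unadjusted p under 0.05. Ctsb rose, with 2632 and 1742 CPM in cKO members against 782 and 575 CPM in control members, a log2 fold change of 2.04 (SE 0.54, edgeR adjusted p = 0.0262). Osbpl8 rose with a log2 fold change of 3.09 (SE 0.70, edgeR adjusted p = 0.00432), on 190 and 490 UMIs in cKO members against 1 and 4 UMIs. Lrmda, a gene named for its link to melanocyte differentiation, rose by 2.50 on the log2 scale (SE 0.59, edgeR adjusted p = 0.00672), on 273 and 681 UMIs against 1 and 10 UMIs.

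Lat2, Entpd1 and Atp6v0c also passed and had no UMI in either control, so they entered the test through the cKO libraries alone. In other control macrophages they measured 85.7, 234 and 98.0 CPM (means on edgeR's scale). In control members 3 UMIs over both libraries stand for 97.7 CPM. For Lat2 and Atp6v0c, the lack of UMIs therefore did not place control members clearly below those macrophages. Set against 3 UMIs over both controls, the level in cKO members was 3.30-fold for Lat2 and 3.20-fold for Entpd1, an ectoenzyme that degrades ATP. For Atp6v0c, a proton pump subunit, it was 2.82-fold. These ratios pool the UMIs of each group, so they cover counting error only and not the spread between libraries. The calls of these 3 genes are given as a description, since only the cKO libraries brought them into the test. Of 18 tested lysosomal enzymes only Ctsb passed, and their median log2 fold change was 1.38. None of 14 lysosome membrane genes (median 1.71) and none of 12 lipid handling genes (median 1.12) passed, beside the median of 0.25 over all genes. Psap had a log2 fold change of 1.58 (edgeR adjusted p = 0.0866) and Plin2 of 1.25 (adjusted p = 0.52), and neither passed.

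The 17 genes that fell included markers of mural cells, whose RNA was higher in control members. Gucy1a2, a subunit of soluble guanylate cyclase, had 21 and 47 UMIs in cKO members against 13 and 25 UMIs in control members, a log2 fold change of -3.16 (SE 0.53). Abcc9 and Kcnj8, which form a potassium channel of pericytes, fell as well, with log2 fold changes of -2.73 and -3.10. Plcl1, Irag1, Serpini1, Dlc1, Nr2f2, Rbpj, Stk39, Slc12a2, St3gal6, Kdm4b and 9530026P05Rik were also among the 17. The 6 mural markers summed to 249 and 446 CPM in cKO members, against 2504 and 2137 CPM in control members. Among the 13 control members 4 held 10 or more mural UMIs, against 0 of 88 and 4 of 137 cKO members, and 6 of the 8 Gpnmb UMIs of control members lay in such nuclei. With only members under 5 mural UMIs, 4 genes passed, 1 higher (Osbpl8, log2 fold change 4.68) and 3 lower, and Ctsb had a log2 fold change of 1.80 (edgeR adjusted p = 0.3). Rbpj then had a log2 fold change of -1.88 (edgeR adjusted p = 0.0913). With edgeR no gene passed without cKO R1 (12 at an unadjusted p under 0.05), and 1, 25 and 2 genes passed without cKO R2, control R1 and control R2.

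**Figure D5:**
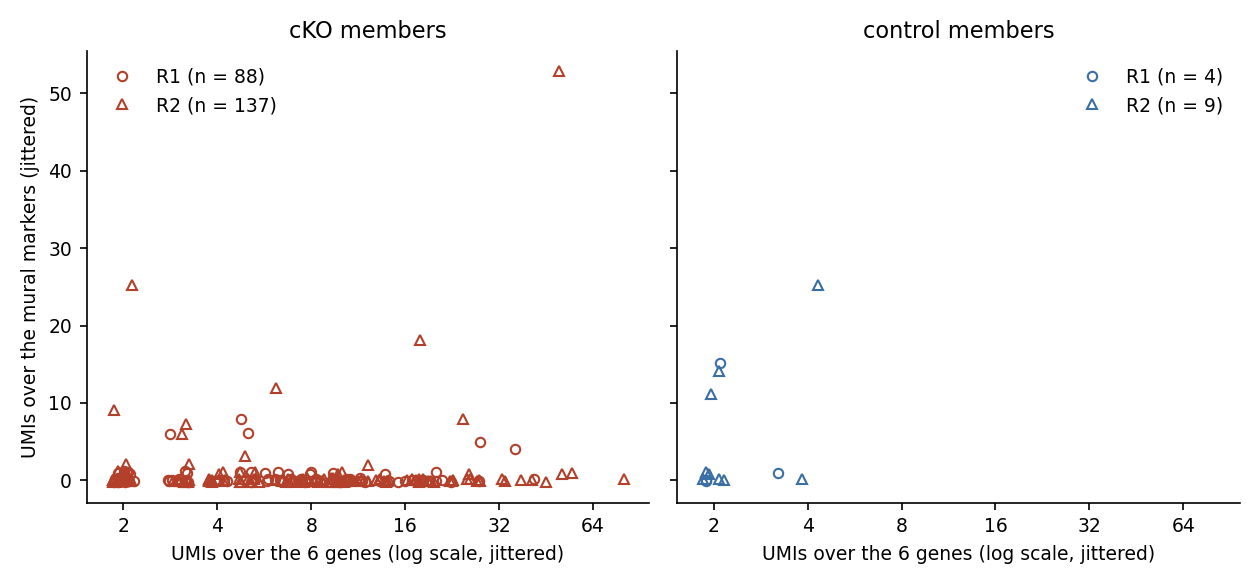
Each symbol is 1 member, placed by its UMIs over the 6 genes (log axis) and over 6 mural markers, for cKO (left) and control (right) libraries. The 4 control members with 10 or more mural UMIs had 2 to 4 UMIs over the 6 genes, and most cKO members had no mural UMI.

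Other macrophages carried their own difference between the groups. Of 10322 genes outside the selection, 48 rose in cKO (0.465%) and 47 fell (0.455%). Ctsd rose, at 127 and 62.6 CPM in cKO against 22.9 and 27.7 CPM in control libraries, a log2 fold change of 1.72 (SE 0.38, edgeR adjusted p = 0.0183), and was the one of 24 tested lysosomal enzymes to pass. Adam8 rose by 2.28 on the log2 scale (edgeR adjusted p = 0.00401), at 121 and 55.9 CPM against 22.9 and 13.8 CPM. Cd163 fell, at 207 and 241 CPM in cKO against 669 and 524 CPM in control libraries, a log2 fold change of -1.42 (edgeR adjusted p = 0.00191), and Lyve1, Timd4 and Mgl2 of the resident list fell as well. The fibroblast markers Postn, Col1a1, Col3a1 and Col1a2 rose in the same nuclei, and the fibroblast list summed to 3519 and 2554 CPM in cKO against 2031 and 1636 CPM in control libraries. Their part in the other calls was not tested.

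The difference between the groups differed between members and other macrophages in 3 of 8191 genes (0.0366%), by edgeR's test of the interaction with library as a block. Lat2 had 427 and 268 CPM in cKO members against 0 and 0 CPM in control members. In other macrophages it had 59.2 and 43.8 CPM in cKO against 111 and 52.6 CPM in control libraries (edgeR adjusted p of the interaction = 0.00887). With 1 UMI worth 156 and 41.1 CPM in control members, the lack of UMIs did not place Lat2 there clearly below other control macrophages. Lrmda had 1475 and 1898 CPM in cKO members against 156 and 411 CPM in control members, and 613 and 851 CPM in other cKO macrophages against 588 and 657 CPM, an interaction of 2.63 on the log2 scale (SE 0.54, adjusted p = 0.00494). Csmd1 had an interaction of -3.89 (adjusted p = 0.000325), with 50 of its 51 UMIs in members of control R2 in 1 nucleus. DESeq2 called no gene for the interaction (316 at an unadjusted p under 0.05), and edgeR called none without cKO R1 or without cKO R2 (123 and 103), and 104 and 52 without control R1 and control R2.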

How the data were processed

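Single-nucleus RNA counts of 4 libraries were used as deposited: UMI counts per gene and nucleus, which the authors made from BD Rhapsody libraries on the mm10 build, per the submitters' processing notes. The sources used here do not name the aligner, the counting tool or the rule that called nuclei. Python 3.11.15, scipy 1.17.1 and scanpy 1.11.5 selected the nuclei, and barcodes marked as doublets were kept, their removal being an alternative. Counts summed per library and class were tested with edgeR 4.0.16 in R 4.3.3 (TMM scaling, quasi-likelihood test, Benjamini-Hochberg threshold 0.05), with DESeq2 1.42.0 as an alternative, and the edgeR steps were tested on simulated data. Labels give each library as a separate pool of mice, and p-values measure the spread between these 4 libraries. The members, the gene lists and the tests were chosen with earlier results of these data known. Named genes were the largest changes past the threshold in each direction, the genes with the same direction in all 4 libraries, and genes of the lists. The ranking within the 2 cKO libraries was added after seeing the data. Ratios between classes used a pseudocount of 20 CPM. Intervals are exact Clopper-Pearson at 95% and, like the limit of 3 counts, cover counting error only.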

Additional observations from a re-analysis of the deposited data

Results flagged for a closer look

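Macrophage nuclei above the mitochondrial limit, which enter no comparison of the groups by gene, held members at shares above those of the controls. Between 5% and 20% mitochondrial UMIs the share was 13.4% in cKO R1 and 11.0% in cKO R2, against 2.73% and 1.38% in the controls. Above 20% it was 10.9% and 10.1% in the cKO libraries, against 1.06% and 0.431% in the controls, on 1 nucleus each.

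The difference between the groups was not the same in members and other macrophages for 3 genes, by edgeR's interaction test. The interaction was 10.87 on the log2 scale for Lat2, which had no UMI in control members, so that its size depends on the prior count. It was 2.63 for Lrmda and -3.89 for Csmd1. Csmd1 had 51 UMIs in members of control R2, of which 50 lay in 1 nucleus, and the 60 and 87 UMIs of other control macrophages included up to 46 and 26 in 1 nucleus.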

How the results depend on the processing

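The member share kept its direction in every setting run, with a log2 difference between 2.17 (at most 1% mitochondrial UMIs) and 5.05 (at least 3 UMIs over the 6 genes) over macrophages and between 3.34 and 5.66 over nuclei. It could not be computed after thinning or with 2 of the 3 genes required, since no control member was left. The 23 genes called in members were 11 with no expression filter, 13 with the replicate block, 1 at most 1% mitochondrial UMIs, 4 with under 5 mural UMIs, and 0 both with at least 3 UMIs over the 6 genes and with Gpnmb left out of the rule, where edgeR gave 208 and 209 genes an unadjusted p under 0.05. Leaving out 1 library gave 0 to 25 genes. DESeq2 called 22. The labels do not say that R1 and R2 pair the libraries, and 2 pairs cannot show it. The 3 interaction genes were 0 with DESeq2 (316 with unadjusted p under 0.05), 7 with RLE scaling, 9 with no filter, 0 at most 1% mitochondrial UMIs (57), 10 with doublets removed, 0 with at least 3 UMIs over the 6 genes (746) and 6 with under 5 mural UMIs, and 0 to 104 without 1 library. The 95 genes of other macrophages were 29 with DESeq2, 811 with the replicate block and 35 to 105 without 1 library. The log2 fold change of 9530026P05Rik in members was 0.23 with under 5 mural UMIs. The interaction of Csmd1 ranged from -4.93 to 8.72 without 1 library, the highest without control R2, and was 2.08 with under 1% cardiomyocyte UMIs, 8.52 with at least 3 UMIs over the 6 genes and 0.82 with Gpnmb left out. The cause of these moves was not tested. Of 302 values of single genes called in members, 160 kept direction and call, 141 lost the call and 1 changed sign. The 13 control members set the depth of every test within members.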
